A study of Mus musculus with 6 samples.

Results

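The 9 genes followed here give podocytes their identity and were measured by RNA-Seq of mouse podocytes (MPCs): *Nphs1*, *Cd2ap* and *Magi2* of the slit diaphragm, *Podxl* and *Ptpro* of the apical surface, *Synpo* and *Actn4* of the actin cytoskeleton, and the transcription factors *Wt1* and *Tcf21*. They were chosen by name, as 9 genes of a table of 24469 loci, and 8 of the 9 were found, each as 1 locus; *Tcf21* has no locus in the table and is not analysed further. The 6 libraries formed 3 groups of 2, all of them conditionally immortalized MPCs starved for 12 h and then kept in high glucose (HG, 25 mM) for 12 h. The HG group received no FGF1, and the other groups were first pretreated for 1 h with 100 ng/mL of recombinant wild-type FGF1 (rFGF1WT) or of rFGF1ΔHBS, a partial agonist whose mutations weaken the heparan sulfate-assisted pairing of its receptors. All cells came from 1 line, grown at 33 °C with 50 U/mL of interferon gamma. Differentiation was induced by 10 days at 37 °C without interferon gamma. No library kept at normal glucose was used, so these genes can be compared between treatments under HG but not with an unstressed state.

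Podocytes wrap the capillaries of the glomerulus with interlocking foot processes, and the gap between neighbouring processes is bridged by the slit diaphragm, a junction that filters protein from plasma. Nephrin, the product of *Nphs1*, spans the gap, is held at the membrane by adaptors and scaffolds such as CD2AP and MAGI2, and is tied to an actin cytoskeleton organized by synaptopodin and α-actinin-4. Podocalyxin and PTPRO sit on the apical side, and WT1 and TCF21 are transcription factors that podocytes need to form and to persist.

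Levels were given as FPKM, the fragments of a gene scaled by its exon length and by the mapped reads of the library, which are per length and can therefore be set side by side between genes. The FPKM of a library summed to 179594 to 185168. Low values of loci with a single transcript fell on steps that would correspond to 22340000 to 23230000 fragments per library, with relative depths of 0.972 to 1.01, so depth was nearly even between the groups. Across loci, log2(FPKM + 1) of libraries of the same group correlated at r = 0.916 to 0.923, and that of libraries of different groups at 0.895 to 0.924, so no library stood apart.

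The mRNA levels of the 8 genes differed widely, from above 23.2% of all loci (*Ptpro*) to above 99.0% (*Actn4*), and genes of the slit diaphragm stood both near the top (*Cd2ap*) and below 1 FPKM (*Nphs1* and *Magi2*). *Actn4*, which crosslinks actin filaments, had the highest level, with a mean of 96.6 FPKM over the 6 libraries. *Cd2ap*, the adaptor between nephrin and actin, followed at 60.7 FPKM, above 98.2% of loci. *Podxl*, the negatively charged sialomucin of the apical surface, stood at 16.0 FPKM, and *Synpo*, which bundles and stabilizes actin in foot processes, at 6.82 FPKM. *Nphs1* reached only 0.781 FPKM, *Magi2*, a scaffold of the slit diaphragm, 0.186 FPKM, *Wt1* 0.0376 FPKM and *Ptpro*, a receptor-type phosphatase, 0.0168 FPKM. *Actn4* was therefore 1.59 times as abundant as *Cd2ap*, and *Cd2ap* 3.79 times as abundant as *Podxl*. In this order the ranges over the 6 libraries overlapped for the neighbours *Magi2* and *Wt1* and for *Wt1* and *Ptpro*, whose order is therefore not settled, and for no other neighbours.

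**Figure D1:**
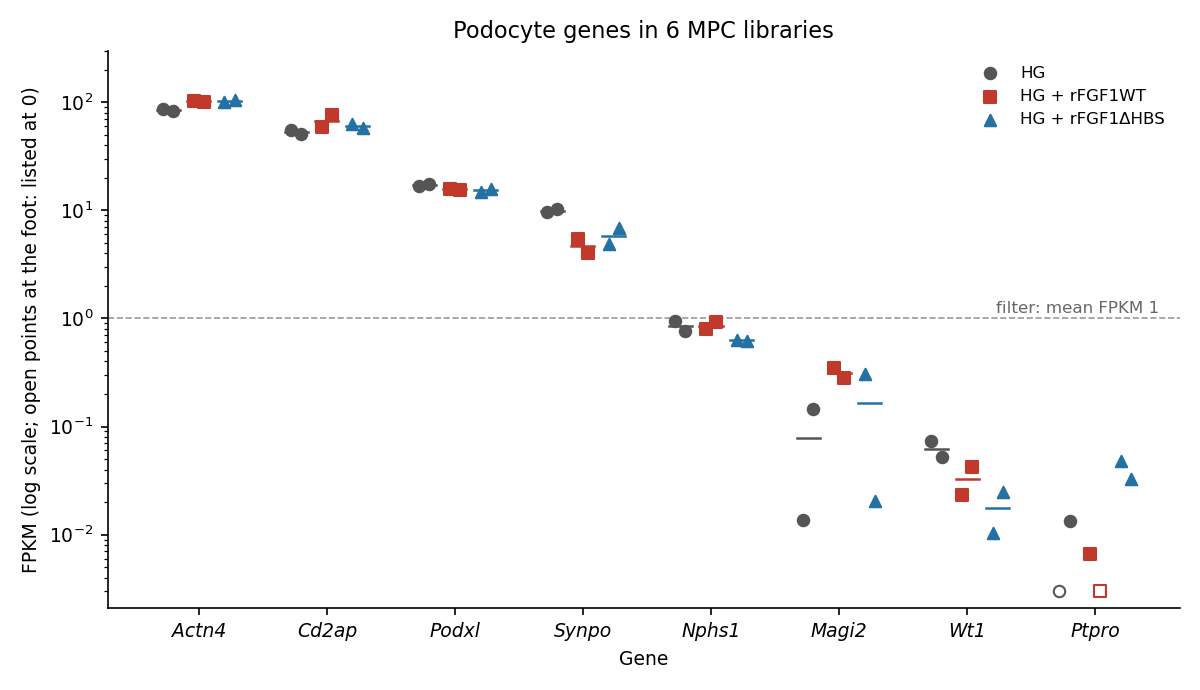
FPKM of the 8 podocyte genes found in the table (log scale), ordered by mean, with 1 point per library; circles are HG, squares HG with rFGF1WT and triangles HG with rFGF1ΔHBS, short lines are group means (not drawn for *Ptpro*), open points at the foot mark libraries listed at 0, and the dashed line is the mean FPKM of 1 needed for a test. *Actn4*, *Cd2ap*, *Podxl* and *Synpo* lie above the line in every library, and *Nphs1*, *Magi2*, *Wt1* and *Ptpro* below it in every library.

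The 4 low genes rested on few fragments. If the longest transcript is taken as the length, the levels of *Wt1* would correspond to 0.743 to 5.19 fragments per library and those of *Ptpro* to 0 to 5.68, whereas *Magi2* would rest on 2.06 to 51.4, *Nphs1* on 64.4 to 99.8, *Synpo* on 468 to 1183 and *Actn4* on 7223 to 9293. Differences of *Wt1* and *Ptpro* between groups were thus not resolvable at this depth. The locus of *Nphs1* (GRCm38 chromosome 7, 30458315 to 30487223, plus strand) shares 597 of its 6620 exonic bases with the antisense gene *Nphs1os* and 183 with the pseudogene *Rps12-ps4*, both on the other strand. As the use of strand is not given in the sources used here, fragments of these genes cannot be told apart from those of *Nphs1*. *Actn4* shares 316 of 6127 exonic bases with *Capn12* on the other strand, but *Capn12* was above 0.0928 FPKM in no library.

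The promoters of 4 genes are shown to set those of 2 low genes (*Nphs1* and *Ptpro*) beside those of the 2 most abundant (*Cd2ap* and *Actn4*). They are RefSeq sequences of GRCm38.p6, of 250 bases before to 50 after the start, read 5′ to 3′ along the gene, and capitals mark the GC box GGGCGG on either strand, the letters bound by SP1-type factors. Of the 9 genes, 6 had an entry in that table. The entries were chr7:30459808-30460107 (plus strand) for *Nphs1*, chr6:137252049-137252348 (plus) for *Ptpro*, chr17:42876375-42876674 (minus) for *Cd2ap* and chr7:28962283-28962582 (minus) for *Actn4*.
Nphs1: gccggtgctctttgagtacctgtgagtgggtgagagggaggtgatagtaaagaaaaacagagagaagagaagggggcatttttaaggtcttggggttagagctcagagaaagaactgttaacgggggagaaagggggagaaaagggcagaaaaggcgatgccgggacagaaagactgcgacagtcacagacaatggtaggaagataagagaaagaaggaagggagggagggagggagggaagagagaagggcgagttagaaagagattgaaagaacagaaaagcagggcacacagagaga
Ptpro: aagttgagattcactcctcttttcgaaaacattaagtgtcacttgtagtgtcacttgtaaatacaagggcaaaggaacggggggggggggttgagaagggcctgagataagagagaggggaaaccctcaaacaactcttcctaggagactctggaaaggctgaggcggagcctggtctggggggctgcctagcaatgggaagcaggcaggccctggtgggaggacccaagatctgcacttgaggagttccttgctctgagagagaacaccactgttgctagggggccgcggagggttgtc
Cd2ap: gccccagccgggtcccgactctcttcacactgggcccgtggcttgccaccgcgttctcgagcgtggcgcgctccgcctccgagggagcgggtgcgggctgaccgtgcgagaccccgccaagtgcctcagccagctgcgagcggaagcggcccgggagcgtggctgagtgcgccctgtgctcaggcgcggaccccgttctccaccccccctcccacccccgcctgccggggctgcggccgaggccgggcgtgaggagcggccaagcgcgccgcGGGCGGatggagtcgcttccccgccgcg
Actn4: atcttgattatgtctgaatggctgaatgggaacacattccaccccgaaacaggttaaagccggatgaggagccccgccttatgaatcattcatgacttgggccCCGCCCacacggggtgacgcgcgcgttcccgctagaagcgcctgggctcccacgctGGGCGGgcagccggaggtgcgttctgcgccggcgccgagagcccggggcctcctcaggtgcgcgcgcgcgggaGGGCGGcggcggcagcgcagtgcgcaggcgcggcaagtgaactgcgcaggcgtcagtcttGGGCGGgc

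The promoters of the abundant genes were rich in GC and CpG. That of *Cd2ap* had 77.0% GC with 41 CpG and 1 GC box, and that of *Actn4* had 68.0% GC with 35 CpG and 4 GC boxes. Those of the low genes lay near the middle of all promoters: *Nphs1* had 49.7% GC with 6 CpG and *Ptpro* 54.7% GC with 5 CpG, and neither held a GC box. Over the 32851 promoters of the table the median was 52.7% GC (quartiles 45.7% and 61.7%) and 7 CpG (quartiles 3 and 20), and 35.7% held a GC box. TATAAA on either strand was in 13.6% of promoters and in none of the 4. The E-box CANNTG, the letters recognized by TCF21 and related factors, was in 72.3% of all promoters, 3 times in that of *Ptpro*, 2 times each in those of *Cd2ap* and *Actn4*, and not in that of *Nphs1*. *Magi2*, also low, had 2 entries that differed. The first had 69.3% GC with 29 CpG and no GC box, and the second 43.0% GC with 4 CpG and 1 GC box. With so few genes, and *Magi2* on both sides, these letters are a description of the sequences.

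In the gene annotation deposited with the table, the term slit diaphragm was carried by 8 of the 16182 annotated loci, of which *Nphs1*, *Magi2* and *Podxl* were 3. The term for development of the glomerular visceral epithelial cell, another name of the podocyte, was carried by 9 loci, again with these 3 among them.

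The label of the cells was checked against podocyte markers. Of 9 markers listed, 8 had a locus, 3 had a mean of at least 1 FPKM, *Podxl* and *Synpo* among them, and 4 were below 0.1 FPKM. *Lmx1b*, a transcription factor of podocytes, was at 0.00627 FPKM in the first rFGF1WT library and at 0 in the others. *Wt1* and *Ptpro*, given above, were near 0 as well. Several defining markers were therefore at or near 0, and the cells are called MPCs by their label only. Among other cell types, 6 of 6 mesangial, 7 of 7 endothelial, 5 of 5 parietal epithelial, 4 of 5 proximal tubule and 5 of 6 leukocyte markers had a locus. *Pax2* and *Pax8*, markers of parietal epithelium, lay at 19.3 to 25.6 and 14.3 to 20.3 FPKM, *Lrp2* (megalin) and *Aqp1* of the proximal tubule at 22.2 to 28.5 and 17.8 to 44.9 FPKM, and *Pdgfrb* of mesangial cells at 26.1 to 32.7 FPKM. In the same lists *Cldn1* (parietal) had a mean of 17.4 FPKM and *Gata3* (mesangial) of 2.70 FPKM, and the rest were low. Parietal *Krt8* (0.153) and *Krt18* (0.0103) and tubule *Cubn* (0.317) and *Slc5a2* (0.0527) had means below 1 FPKM. So did mesangial *Itga8* (0.0184), *Des* (0.131), *Ren1* (0.00876) and *Serpine2* (0.0916). Endothelial markers other than *Ehd3* (1.06 to 3.48 FPKM) and all leukocyte markers with a locus had means below 1 FPKM. Bulk RNA cannot tell fewer cells of a type from less RNA per cell.

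**Figure D2:**
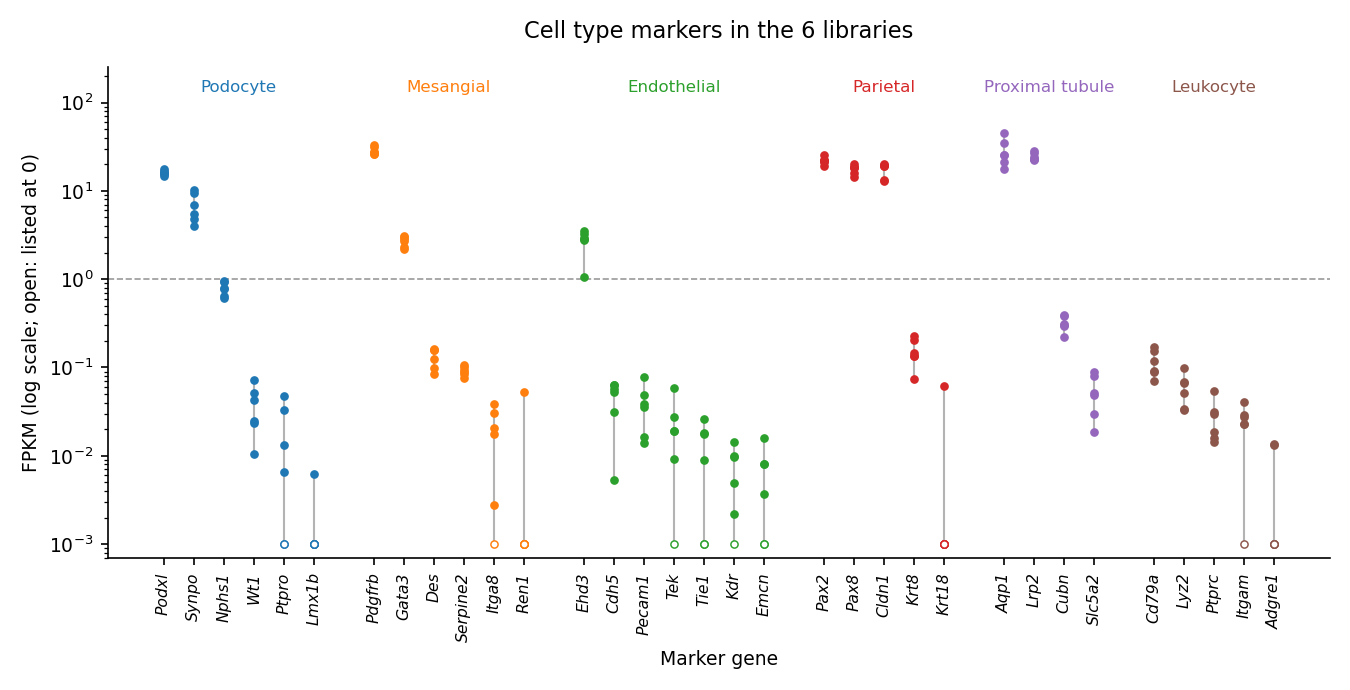
FPKM (log scale) of 33 marker genes of 6 cell types, 1 point per library, with the range as a grey line and open points for libraries listed at 0; the dashed line is 1 FPKM. Among podocyte markers *Podxl* and *Synpo* are well above 1 FPKM while *Wt1*, *Ptpro* and *Lmx1b* are near 0, and *Pax2*, *Pax8*, *Lrp2*, *Aqp1* and *Pdgfrb* lie above 10 FPKM in every library. Of the same lists, *Krt8*, *Krt18*, *Cubn*, *Slc5a2*, *Itga8*, *Des*, *Ren1* and *Serpine2* lie below 1 FPKM in every library.

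Each protein was then compared with HG alone, which asks whether FGF1 changed the podocyte genes under HG, and rFGF1ΔHBS was compared with rFGF1WT, which asks whether the partial agonist differed from the full one. The test was limma on log2(FPKM + 1), with p-values adjusted by the Benjamini-Hochberg method over the 10562 loci whose mean FPKM was at least 1, and a locus was called at an adjusted p under 0.05. Of the 8 genes found, 4 entered the test (*Actn4*, *Cd2ap*, *Podxl* and *Synpo*). The 4 genes below the filter are described by their values. Nothing states that the 2 libraries of a group came from separate cultures, so p-values measure the spread between libraries, which may be technical. Both comparisons with HG use the same 2 HG libraries.

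None of the 4 tested genes was called in any of the 3 comparisons by limma. Over all tested loci 6.19% were called for rFGF1WT against HG, 6.26% for rFGF1ΔHBS against HG and 0.549% for rFGF1ΔHBS against rFGF1WT. At an unadjusted p under 0.05, 2 of the 4 (*Actn4* and *Synpo*) passed for rFGF1WT, where 24.8% of loci did, and the same 2 for rFGF1ΔHBS, where 24.9% did. Between the proteins 0 of 4 passed at that limit, where 4.87% of loci did. All 4 had groups that did not overlap with HG for both proteins, *Actn4* and *Cd2ap* above HG and *Synpo* and *Podxl* below it. Non-overlap was common, however, at 58.2% of tested loci for rFGF1WT (24.1% higher and 34.1% lower) and 57.3% for rFGF1ΔHBS (24.4% higher and 32.9% lower). Between the 2 proteins the groups of 0 of 4 genes were apart, against 34.5% of tested loci.

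*Synpo* showed the largest difference from HG of the 4. It was at 9.58 and 10.2 FPKM in the HG libraries, at 5.45 and 4.01 FPKM with rFGF1WT and at 4.84 and 6.83 FPKM with rFGF1ΔHBS. The 4 treated libraries were all lower than both HG libraries, and the treated groups overlapped each other. The mean was 9.91 ± 0.470 FPKM in HG (SD, n = 2), 4.73 ± 1.02 FPKM with rFGF1WT and 5.83 ± 1.41 FPKM with rFGF1ΔHBS, which is 0.477 and 0.589 of the HG mean. The log2 difference from HG was -0.94 (SE 0.20) for rFGF1WT, with a limma adjusted p of 0.0787, and -0.69 (SE 0.20) for rFGF1ΔHBS, with a limma adjusted p of 0.131. Neither passed the threshold, although the unadjusted 95% intervals, -1.47 to -0.41 and -1.22 to -0.16, did not include 0. For rFGF1ΔHBS the difference was -0.48 without the first library of that group and -0.90 without the second.

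*Podxl* was lower by a small amount. The HG libraries were at 16.6 and 17.6 FPKM, those with rFGF1WT at 15.8 and 15.5 FPKM and those with rFGF1ΔHBS at 14.8 and 15.8 FPKM. All treated libraries were below both HG libraries, by 8.79% of the mean for rFGF1WT and 10.6% for rFGF1ΔHBS. The log2 difference was -0.12 (SE 0.06, limma adjusted p = 0.305) for rFGF1WT and -0.15 (SE 0.06, limma adjusted p = 0.229) for rFGF1ΔHBS.

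*Actn4*, in contrast, was higher with either protein. It was at 86.4 and 83.2 FPKM in HG, at 104 and 101 FPKM with rFGF1WT and at 99.7 and 106 FPKM with rFGF1ΔHBS. The treated libraries were all above both HG libraries, and the spread within groups was small, with coefficients of variation of 2.19% to 4.31%. The means were 84.8 ± 2.22 FPKM in HG (SD, n = 2), 102 ± 2.24 FPKM with rFGF1WT and 103 ± 4.43 FPKM with rFGF1ΔHBS, 20.5% and 21.3% above HG. The log2 difference was 0.27 (SE 0.05) for rFGF1WT and 0.28 (SE 0.05) for rFGF1ΔHBS, with limma adjusted p of 0.0701 and 0.0631, which miss the threshold.

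*Cd2ap* was at 55.9 and 51.3 FPKM in HG, at 58.9 and 76.2 FPKM with rFGF1WT and at 63.6 and 58.3 FPKM with rFGF1ΔHBS. Its treated libraries were above HG as well, but the rFGF1WT group was uneven, and its second library was the highest of the 6. The log2 difference was 0.32 (SE 0.14, limma adjusted p = 0.269) for rFGF1WT and 0.18 (SE 0.14, limma adjusted p = 0.491) for rFGF1ΔHBS. Without the second rFGF1WT library the first of these fell to 0.13, and without the first it was 0.50.

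**Figure D3:**
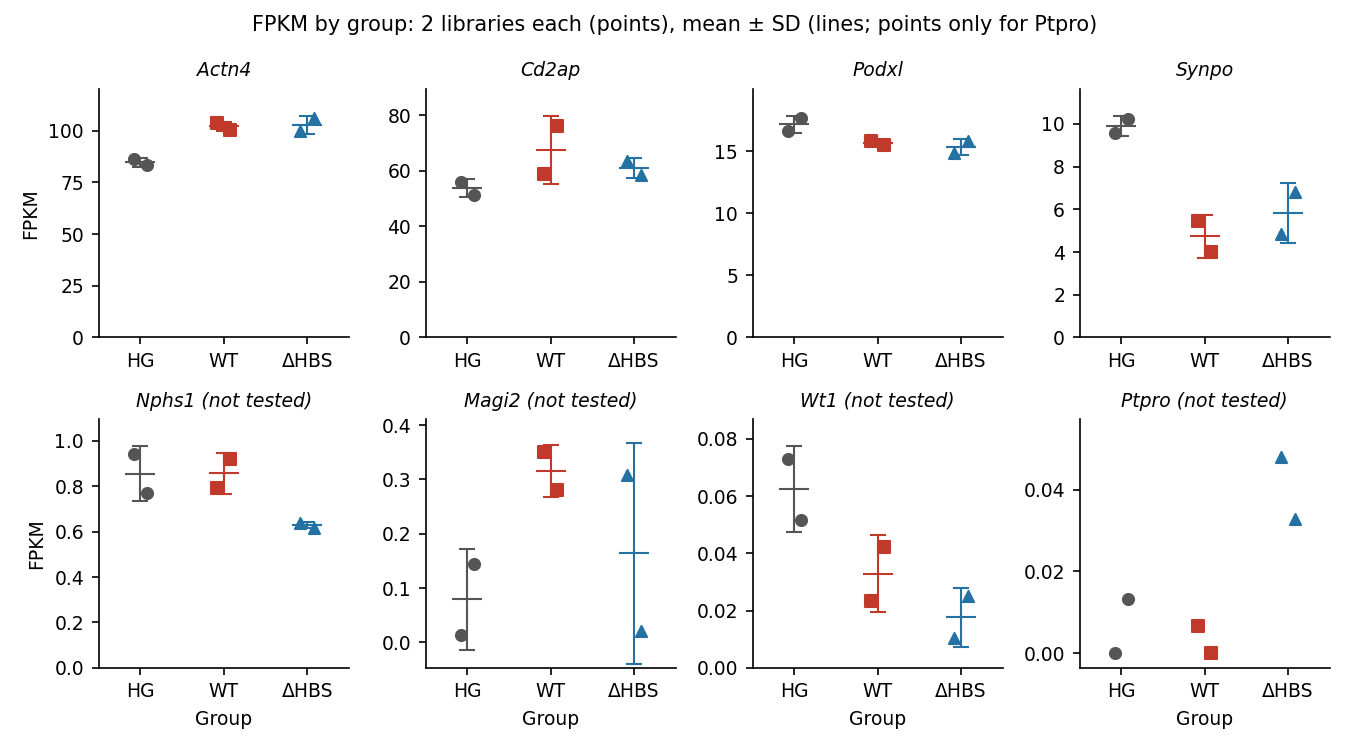
FPKM of the 8 podocyte genes in HG, HG with rFGF1WT (WT) and HG with rFGF1ΔHBS (ΔHBS), each panel on its own linear scale, with 1 point per library and lines for the mean ± SD of 2 libraries (points only for *Ptpro*, which is listed at 0 in 2 libraries). *Actn4* and *Cd2ap* lie above HG and *Podxl* and *Synpo* below it in all 4 treated libraries, and *Magi2* is uneven within HG and within rFGF1ΔHBS.

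The 2 proteins were not distinguished by these genes. For rFGF1ΔHBS minus rFGF1WT the log2 difference of *Actn4* was 0.01 (95% interval -0.13 to 0.15), that of *Podxl* -0.03 (-0.19 to 0.14), that of *Cd2ap* -0.14 (-0.52 to 0.25) and that of *Synpo* 0.25 (-0.28 to 0.78). The limma adjusted p lay between 0.905 and 1. The intervals leave a difference of 0.15 or less on the log2 scale for *Actn4*. They reach -0.52 for *Cd2ap* and 0.78 for *Synpo*, so for *Cd2ap* and *Synpo* alikeness was not shown either.

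**Figure D4:**
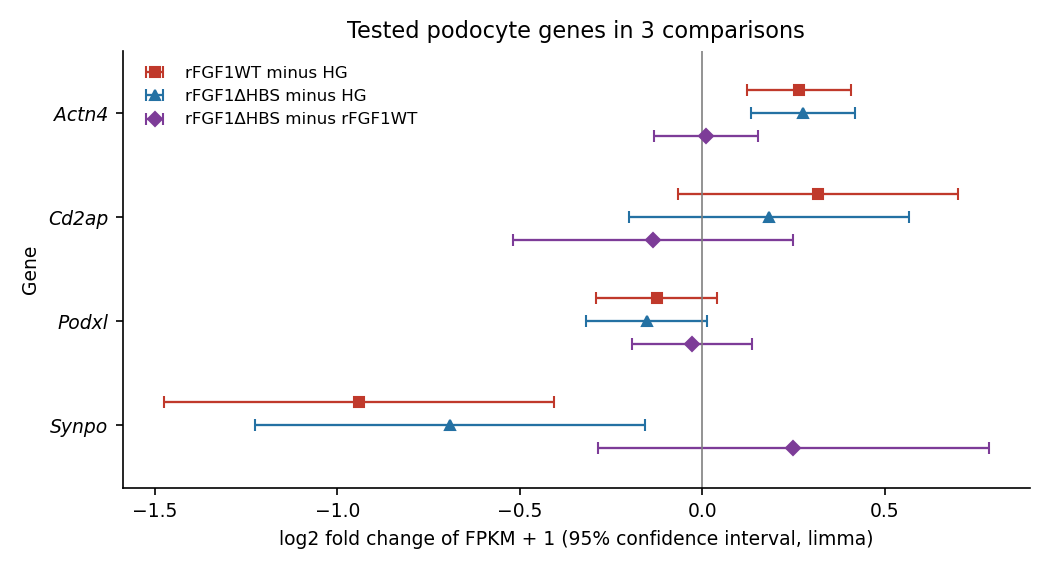
Log2 fold change of FPKM + 1 for the 4 tested podocyte genes, with the unadjusted 95% confidence interval of limma; squares are rFGF1WT minus HG, triangles rFGF1ΔHBS minus HG and diamonds rFGF1ΔHBS minus rFGF1WT. The intervals of *Actn4* and *Synpo* against HG do not include 0, in opposite directions, and those between the 2 proteins all include 0.

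Of the genes below the filter, *Nphs1* had the most fragments. It was at 0.942 and 0.770 FPKM in HG, at 0.794 and 0.922 FPKM with rFGF1WT and at 0.638 and 0.618 FPKM with rFGF1ΔHBS. HG and rFGF1WT overlapped, and both rFGF1ΔHBS libraries were below the other 4, at 0.734 of the HG mean. In a fit without the filter the log2 difference of rFGF1ΔHBS from HG was -0.19 (limma adjusted p = 0.486), and that from rFGF1WT was also -0.19 (limma adjusted p = 0.919). Of all 24469 loci, 23.0% had rFGF1ΔHBS wholly below HG, and 13.2% had it wholly below rFGF1WT.

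*Magi2* varied widely within HG and within rFGF1ΔHBS. It was at 0.0136 and 0.144 FPKM in HG, at 0.350 and 0.281 FPKM with rFGF1WT and at 0.307 and 0.0203 FPKM with rFGF1ΔHBS. The rFGF1WT libraries were above both HG libraries, as were 17.3% of all loci, but the rFGF1ΔHBS libraries lay at either end of the range. Its difference from HG had a limma adjusted p of 0.462 for rFGF1WT and 0.792 for rFGF1ΔHBS without the filter.

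*Wt1*, the transcription factor that sustains the podocyte programme, was at 0.0731 and 0.0518 FPKM in HG, at 0.0233 and 0.0423 FPKM with rFGF1WT and at 0.0104 and 0.0250 FPKM with rFGF1ΔHBS. The treated libraries were all below HG, as were 23.6% of all loci for rFGF1WT and 23.0% for rFGF1ΔHBS. Without the filter the limma adjusted p against HG were 0.411 and 0.226, at levels of a few fragments. *Ptpro* was listed at 0 and 0.0133 FPKM in HG, at 0.00655 and 0 FPKM with rFGF1WT and at 0.0479 and 0.0329 FPKM with rFGF1ΔHBS. Both rFGF1ΔHBS libraries were above the other 4, where 17.2% of all loci had rFGF1ΔHBS wholly above HG and 14.5% wholly above rFGF1WT. The highest library would correspond to 5.68 fragments, and without the filter the limma adjusted p were 0.210 and 0.742.

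Other genes linked to podocytes were read from 4 lists of 68 genes, of which 68 had a locus and 48 entered the test. The rest, *Lmx1b* among them, had a mean below 1 FPKM. The calls below therefore cover only the listed genes that were expressed, and do not describe the podocyte programme as a whole. For rFGF1WT against HG, 10 of the 48 were called (20.8%), 8 higher and 2 lower, and for rFGF1ΔHBS 9 were called (18.8%), 7 higher and 2 lower. Among all tested loci 3.26% were called higher and 2.94% lower for rFGF1WT, and 3.37% and 2.89% for rFGF1ΔHBS. The median log2 difference of the 48 was 0.09 for rFGF1WT and 0.06 for rFGF1ΔHBS, against -0.04 over all tested loci in both. Between the proteins 0 of the 48 were called by limma. The lists were chosen with earlier results of these data known, so the shares called cannot be read apart from that choice.

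Partners of the slit diaphragm were split between genes that were well expressed and genes near 0. Of 15 listed, 10 entered the test. *Kirrel*, whose product NEPH1 binds nephrin across the slit, was at 15.6 and 16.9 FPKM in HG, at 46.4 and 34.0 FPKM with rFGF1WT and at 26.8 and 35.2 FPKM with rFGF1ΔHBS. All treated libraries exceeded both HG libraries. It rose with rFGF1WT by 1.24 on the log2 scale (SE 0.20, limma adjusted p = 0.0483), and its difference with rFGF1ΔHBS was 0.88 (limma adjusted p = 0.0899). *Tjp1*, which encodes the junction scaffold ZO-1, rose with rFGF1WT by 0.35 (limma adjusted p = 0.0401) and with rFGF1ΔHBS by 0.41 (limma adjusted p = 0.0273). *Fyn*, the kinase that phosphorylates nephrin, rose with rFGF1WT by 0.36 (limma adjusted p = 0.0488), and its difference with rFGF1ΔHBS was 0.32 (limma adjusted p = 0.0593). The other 7 tested genes were not called with rFGF1WT, and 9 of the 10 were not called with rFGF1ΔHBS. The median log2 difference of the list was 0.13 for rFGF1WT and 0.19 for rFGF1ΔHBS.

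Among 21 genes of the foot process cytoskeleton 18 were tested. *Vcl*, encoding vinculin of focal adhesions, was at 45.0 and 43.9 FPKM in HG, at 80.4 and 83.6 FPKM with rFGF1WT and at 88.4 and 86.2 FPKM with rFGF1ΔHBS. It rose by 0.87 (SE 0.05, limma adjusted p = 0.00661) with rFGF1WT and by 0.96 (SE 0.05, limma adjusted p = 0.00583) with rFGF1ΔHBS. *Actn1*, the paralog of *Actn4*, rose by 0.35 (limma adjusted p = 0.0286) and 0.38 (limma adjusted p = 0.0248). *Actn1* and *Actn4* thus moved by similar amounts, with only *Actn1* past the threshold; the difference between the genes was not tested, and fragments of paralogs may be divided between them. *Inf2*, a formin, rose with rFGF1ΔHBS by 0.46 (limma adjusted p = 0.0322), and its difference with rFGF1WT was 0.36 (limma adjusted p = 0.0519). No gene of this list was called lower with either protein, and its median was 0.23 for rFGF1WT and 0.19 for rFGF1ΔHBS.

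Of 11 transcription factors listed as related to podocytes 7 were tested, and *Vdr*, the vitamin D receptor, was the 1 called. It was at 4.94 and 4.76 FPKM in HG, at 2.33 and 2.72 FPKM with rFGF1WT and at 2.52 and 2.67 FPKM with rFGF1ΔHBS. It fell by 0.73 (SE 0.09, limma adjusted p = 0.0247) and by 0.70 (SE 0.09, limma adjusted p = 0.0270) on the log2 scale. The median of these 7 genes was -0.13 for rFGF1WT and -0.61 for rFGF1ΔHBS and depended on single libraries. For rFGF1WT it was -0.03 without the second library of that group, -0.23 without the first and -0.23 without the second HG library, and for rFGF1ΔHBS it was -0.34 without the first library of that group.

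Adhesion, surface and secreted genes moved in both directions. Of 21 listed 13 were tested, and 3 rose and 1 fell with either protein. *Itga3*, the laminin-binding integrin of the foot process, was at 65.1 and 64.2 FPKM in HG, at 154 and 153 FPKM with rFGF1WT and at 146 and 160 FPKM with rFGF1ΔHBS. It rose by 1.23 (SE 0.06) with each, with limma adjusted p of 0.00484 and 0.00510. *Nes*, which encodes the intermediate filament nestin, rose by 0.89 (limma adjusted p = 0.00576) and 0.97 (limma adjusted p = 0.00510). *Itgb1*, the partner of *Itga3*, rose by 0.30 (limma adjusted p = 0.0404) and 0.26 (limma adjusted p = 0.0494). *Mme*, encoding the surface protease neprilysin, fell by 0.67 (limma adjusted p = 0.0435) and by 0.65 (limma adjusted p = 0.0462). The list's median was -0.12 for rFGF1WT and -0.07 for rFGF1ΔHBS, the latter falling between -0.14 (first HG library left out) and -0.011 (first rFGF1ΔHBS library left out).

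**Figure D5:**
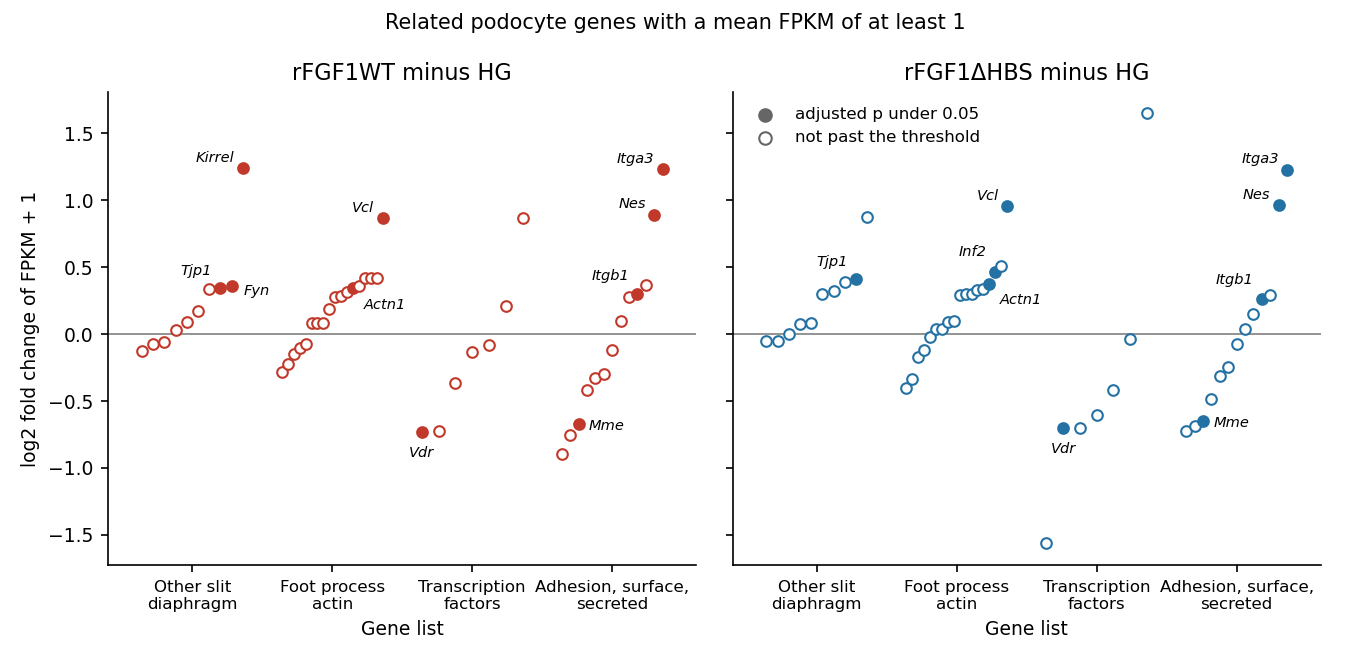
Log2 fold change of FPKM + 1 for 48 related podocyte genes in 4 lists, with rFGF1WT minus HG on the left and rFGF1ΔHBS minus HG on the right; filled points are past an adjusted p of 0.05 and are named. *Itga3*, *Nes* and *Vcl* rise with both proteins, and *Vdr* and *Mme* fall with both.

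These calls differed in whether they held when a library was left out. In both comparisons with HG, leaving out any library, also one outside the comparison, lowered the calls over all tested loci as well. The losses are therefore not particular to these genes. *Vcl*, *Itga3* and *Nes* were called for both proteins whichever of the 6 libraries was left out. The other 7 calls for rFGF1WT and the other 6 for rFGF1ΔHBS were lost whichever library was left out, with limma adjusted p of 0.0525 to 0.173 and of 0.0548 to 0.167, while the direction held.

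Markers of other lineages are given beside these genes. The summed FPKM of the 8 podocyte markers, most of it *Podxl* and *Synpo*, was 27.3 to 28.7 in HG, 22.1 to 22.7 with rFGF1WT and 22.5 to 25.5 with rFGF1ΔHBS. The 4 proximal tubule markers summed to 62.1 to 73.8, 44.4 to 47.9 and 40.8 to 50.1 in the same groups, and the 6 mesangial markers to 34.4 to 35.1, 29.4 to 30.7 and 29.4 to 30.6. The 5 parietal epithelial markers summed to 53.0 to 57.7, 58.6 to 61.4 and 55.6 to 57.4, the 7 endothelial markers to 3.32 to 3.56, 1.21 to 3.04 and 2.95 to 3.04, and the 5 leukocyte markers to 0.207 to 0.239, 0.260 to 0.296 and 0.140 to 0.235. Of the 2 mesangial, 1 endothelial, 3 parietal and 2 proximal tubule markers tested, only *Cldn1*, the claudin of parietal cells, was called. It rose by 0.57 (limma adjusted p = 0.0164) with rFGF1WT and by 0.50 (limma adjusted p = 0.0205) with rFGF1ΔHBS. Over all tested loci 6.19% and 6.26% were called. The other tested parietal markers were not called and were lower, *Pax2* by -0.11 and -0.19 and *Pax8* by -0.04 and -0.16 in the same order. The part of these marker levels in the values of *Synpo* and *Podxl* was not tested.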

How the data were processed

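Poly(A) RNA of 6 MPC libraries, 2 per group as their labels give them, was sequenced from both ends by the authors, who deposited 1 table of FPKM per assembled or annotated locus. The submitters' processing notes list Bowtie 0.12.2, HISAT2 2.0, StringTie 1.3.0 and mm8, with no roles. The table has no coordinates, so positions were taken from GENCODE M21 (GRCm38), which held 99.6% of its 78903 Ensembl transcripts.

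FPKM are not counts, so log2(FPKM + 1) was fitted with limma 3.58.1 (lmFit, contrasts and eBayes with a trend) in R 4.3.3, all 6 libraries in one fit, over loci whose mean reached 1 FPKM, and checked on simulated data. The fold change on this scale understates that of low genes. An exact permutation test of 2 against 2 libraries cannot go below p = 0.333. Depth was read from steps of FPKM times length at loci with 1 transcript, where 45.0% to 47.3% of low values lay within 5% of a whole multiple, against 10% if spread evenly. Plots used matplotlib 3.10.9 with pandas 2.3.3 and numpy 2.4.6 in Python 3.11.15.

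Members, lists and markers were chosen with earlier results of these data known. Named genes are the 9 members, genes of the 4 lists past the threshold, and the markers; *Foxc1* was named after its values were seen. The results of 2 genes of these lists are not reported here by name, though they enter the counts. Alternatives were a pseudocount of 0.1, no filter or one at a mean of 5, median-ratio or quantile scaling, only the 4 libraries compared, a replicate block, a 2-fold limit, robust empirical Bayes and leaving out each library, and, chosen after seeing the data, no filter with a pseudocount of 0.1, and list medians without each library.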

Additional observations from a re-analysis of the deposited data

How the results depend on the processing

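None of the 4 tested genes (*Actn4*, *Cd2ap*, *Podxl* and *Synpo*) was called under any alternative run, and in 120 of 120 values from alternatives other than leaving out a library their direction and side of the threshold held. Among these, a changed filter alone, only the 4 libraries compared, the replicate block, robust empirical Bayes and the 2-fold limit left the log2 difference unchanged. Direction could therefore not change under them, and the 2-fold limit could not add a call. The lowest limma adjusted p were 0.0531 for *Actn4* with rFGF1ΔHBS and 0.0543 with rFGF1WT, both with median-ratio scaling, and 0.0730 for *Synpo* with rFGF1WT at a mean FPKM of at least 5. Leaving out a library reversed 4 of 72 values, all for rFGF1ΔHBS minus rFGF1WT. Over the 6 fits that each left out a library this difference ranged from -0.034 to 0.053 for *Actn4*, -0.32 to 0.048 for *Cd2ap*, -0.070 to 0.015 for *Podxl*, -0.079 to 0.0021 for *Fyn*, -0.052 to 0.11 for *Vdr*, -0.068 to 0.059 for *Itga3* and -0.10 to 0.15 for *Mme*. With quantile normalization it was 0.016 for *Itga3* and 0.016 for *Itgb1*, also reversed. A lone library left in a group was assumed to vary like the other groups.

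Counts of called loci moved more. For rFGF1WT minus HG, rFGF1ΔHBS minus HG and rFGF1ΔHBS minus rFGF1WT in turn, limma called 654, 661 and 58 loci. The counts for the first and second of these were 407 and 386 without the filter, 404 and 391 without it at a pseudocount of 0.1, 170 and 189 with only the 4 libraries compared, and 107 and 95 with a 2-fold limit. For the third the count was 31 at a mean of at least 5 and 37 with a 2-fold limit. Without 1 library they ranged from 134 to 195, 118 to 198 and 43 to 107, lowest without the first HG library for the first and second, and highest for the third without the first rFGF1WT library. Related podocyte genes called with rFGF1WT and rFGF1ΔHBS numbered 10 and 9, but 4 and 5 without the filter, 3 and 4 without it at a pseudocount of 0.1, 3 and 4 with only the 4 libraries compared, 2 and 1 with a 2-fold limit, and 3 to 4 and 3 to 4 without 1 library. Between the proteins they ranged from 0 to 1. *Foxc1* was not called for rFGF1ΔHBS minus HG in the main fit (-0.70, limma adjusted p = 0.423). It was at 12.0 and 12.6 FPKM in HG and at 12.1 and 4.14 FPKM with rFGF1ΔHBS. Among the alternatives run it was called only without the first rFGF1ΔHBS library (-1.37), so that call rests on the library at 4.14 FPKM. The causes were not tested.

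Groups share replicate numbers, but same-numbered libraries did not deviate together (r = -0.02, 0.10 and -0.05 between pairs of groups), so the main fit did not pair them. Whether same-numbered libraries were prepared together is not given by the labels, and these correlations cannot settle it. With the replicate number as a block 41, 39 and 6 loci and 2 (*Itga3* and *Nes*), 3 (these and *Vcl*) and 0 related genes were called. No member had a second locus, so that alternative gave no value. The levels of *Wt1*, *Ptpro* and *Magi2* would correspond to only a few fragments in some libraries.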
